A study of Mus musculus with 10 samples.

Results

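Bone morphogenetic protein (BMP) signalling was followed in undifferentiated mouse embryonic stem cell (ESC) lines through 10 genes, chosen by symbol: the ligand Bmp4, the receptor Bmpr1a, the pseudoreceptor Bambi, the signal carriers Smad1 and Smad5, the inhibitor Smad6 and the target genes Id1, Id2, Id3 and Id4. Each symbol matched 1 row of the 20206 genes listed, and all 10 had a mean of at least 10, as did 14354 genes in all. RNA sequencing covered 10 wild-type C57Bl/6 lines labelled male, of which 5 came from mothers on a low protein diet (LPD) with 9% casein and 5 from mothers on a normal protein diet (NPD) of equal calories with 18% casein. The mothers were 7 to 9 weeks old and received the diet until embryonic day 3.5, when the blastocysts were taken for derivation. Per the study's methods every line came from a different mother, was established on feeder fibroblasts and was grown without them before RNA was extracted. The lines are named by their label numbers, LPD lines 1, 4, 6, 20 and 40 and NPD lines 8, 15, 21, 36 and 51, and each was 1 replicate. The question was whether the transcripts of this pathway differed between LPD and NPD lines.

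BMP ligands bring together type I and type II receptors, and the type I receptor phosphorylates SMAD1 and SMAD5, which enter the nucleus with SMAD4 and bind DNA. The Id genes are the classical direct targets. Their proteins lack a DNA-binding region, pair with bHLH factors and keep them from E-box sequences, and in mouse ESCs cultured with leukemia inhibitory factor (LIF) BMP signalling through the Id genes is known to restrain neural differentiation.

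Stretches upstream of a RefSeq start of 3 Id genes and of Bmp4 are shown, the Id genes as known SMAD targets and Bmp4 as the ligand. The sequences are from RefSeq on GRCm38.p6, 5′ to 3′ on the strand of the gene, and 8 of the 10 genes matched the promoter table, which reaches from 250 bases before the start to 50 after it. Short motifs were searched on both strands. The GC-rich SMAD motif GGCGCC was held by 9.59% of the 32851 promoters in the table, the SMAD box CAGAC or GTCTG by 42.2%, and CACGTG, 1 form of the E-box, by 6.02%. Other forms of the E-box were not searched. A match describes the letters and is not a bound site. The capitals mark GGCGCC in Id2 (chr12:25096254-25096342, minus strand, bases 250 to 162 before the start) and Id4 (chr13:48260866-48261115, plus strand, the 250 bases before the RefSeq start). The GENCODE gene model of Id4 begins downstream of that, at 48261228. The capitals also mark CAGAC in Id3 (chr4:136143643-136143672, plus strand, 30 bases that lie in an annotated exon of 1 transcript) and CACGTG in Bmp4 (chr14:46390670-46390919, minus strand, the 250 bases before the start). The parts of Id2, Id4 and Bmp4 shown lie in no annotated exon. Those of Id2 and Id3 lie inside the GENCODE gene models, which span 25093799 to 25097140 and 136143497 to 136145755.
Id2: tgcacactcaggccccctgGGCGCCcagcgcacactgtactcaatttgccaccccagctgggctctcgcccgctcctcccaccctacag
Id3: tgtcctcggcgtCAGACcagcctaaggaag
Id4: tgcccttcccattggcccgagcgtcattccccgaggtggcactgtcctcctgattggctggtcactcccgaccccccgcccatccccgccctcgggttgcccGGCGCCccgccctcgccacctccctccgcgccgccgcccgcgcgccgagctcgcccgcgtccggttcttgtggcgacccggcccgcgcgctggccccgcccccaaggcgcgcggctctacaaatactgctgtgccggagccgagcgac
Bmp4: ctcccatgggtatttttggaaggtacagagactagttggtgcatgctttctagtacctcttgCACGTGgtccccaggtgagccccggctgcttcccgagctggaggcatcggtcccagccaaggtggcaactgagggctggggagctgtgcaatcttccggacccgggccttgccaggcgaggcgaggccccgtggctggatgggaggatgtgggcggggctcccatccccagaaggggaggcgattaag

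GGCGCC was present 1 time each in Id2, Id4 and Bmpr1a and in 1 of the 3 Smad5 promoters. The Id3 promoter held the SMAD box 2 times, and 1 other Smad5 promoter held it 1 time. The Smad1 and Smad6 promoters contained none of the motifs. Promoters of Id1 and Bambi were not used here.

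The authors deposited 1 normalized estimated count per gene and line, called the normalized value below. From the low values, the depth was estimated at 5839430 to 24076500 read equivalents in LPD lines and 20476500 to 23182000 in NPD lines. LPD lines 4, 6 and 40 were at 5839430, 12356500 and 11246300, below every NPD line, so depth went in part with diet. With depth as a covariate the log2 fold changes given below were 0.43 for Bmp4, 0.04 for Bmpr1a, 0.16 for Bambi, 0.17 for Smad1, 0.11 for Smad5, -0.17 for Smad6, 0.79 for Id1, 0.63 for Id2, 0.33 for Id3 and 0.48 for Id4 (limma unadjusted p at least 0.0747). The pluripotency markers were high in every line, with sums over 8 genes (Pou5f1, Nanog and others) of at least 80367. The sum of 10 fibroblast markers ranged from 477 to 3553 in LPD lines and from 510 to 5747 in NPD lines, and it was highest in LPD line 6 and NPD lines 8 and 15. The Y-linked gene Ddx3y was at 7.70 in NPD line 15 and 174 in LPD line 4, against 1110 to 1493 in the other 8 lines, and 334 X-linked genes had in NPD line 15 a median log2 level 0.49 above the median line. In LPD line 4 that median was 0.0014, as in the other lines. NPD line 15 thus went against its male label in both measures, and LPD line 4 was low in Ddx3y only. Without both lines the log2 fold changes given below were 0.42 for Bmp4, 0.06 for Bmpr1a, 0.17 for Bambi, 0.13 for Smad1, 0.04 for Smad5, -0.08 for Smad6, 0.65 for Id1, 0.89 for Id2, 0.30 for Id3 and 0.66 for Id4. RNA from a whole culture was measured, so fewer cells of a type and less RNA per cell cannot be told apart.

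None of the 10 genes passed the test between diets. Each log2 fold change compares LPD with NPD on the log2(value + 1) scale and was tested with limma across all 14354 genes. At an unadjusted p under 0.05, 0 of the 10 genes were called, against 5.02% of all genes (2.84% higher and 2.18% lower in LPD). At an adjusted p under 0.1 none was called, as was 0% of all genes, 721 of which had an unadjusted p under 0.05. The adjusted p of the 10 genes (limma, Benjamini-Hochberg) lay between 0.994 and 0.997. In 0 of the 10 genes did the LPD and NPD lines fail to overlap, against 1.02% of all genes (0.523% with LPD higher and 0.495% with LPD lower). The LPD mean was the higher in 9 of 10 genes, against 50.5% of all genes, and the median log2 fold change was 0.34 beside 0.002 over all genes. The 10 genes share a pathway and 4 of them are of 1 family, so the 9 are not independent observations.

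**Figure D1:**
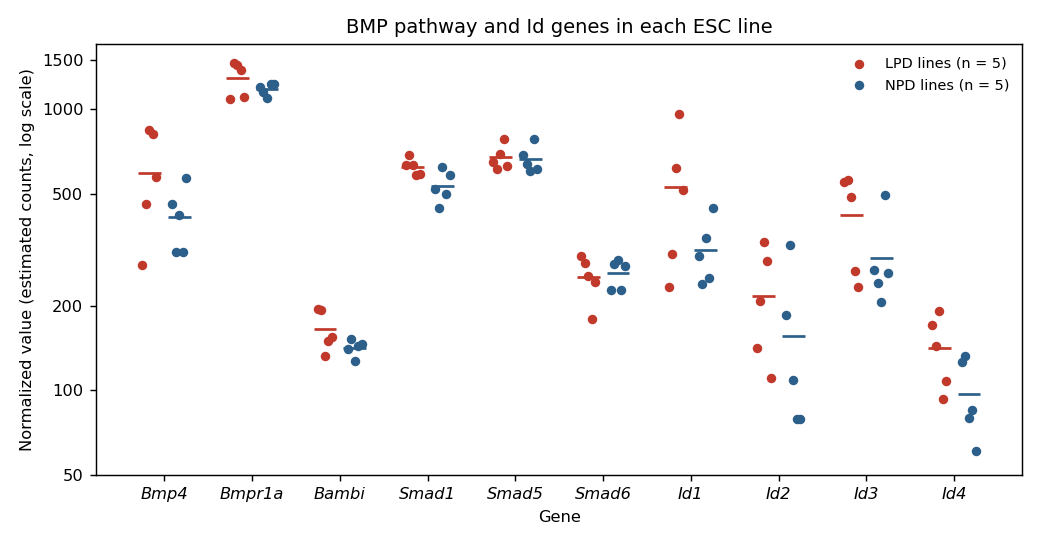
Normalized value (estimated counts, log scale) of each of the 10 genes in the 5 LPD and 5 NPD lines; points are lines and horizontal bars are means. The LPD and NPD lines overlap in every gene, and Id1, Id2, Id3, Id4 and Bmp4 spread more widely than the others.

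Bmp4, the ligand, was at 280, 460, 841, 814 and 572 in LPD lines 1, 4, 6, 20 and 40. In NPD lines 8, 15, 21, 36 and 51 it was at 458, 311, 419, 310 and 571. The 3 highest lines were LPD lines and so was the lowest, LPD line 1. The LPD mean was 594 ± 238 against 414 ± 109 in NPD (SD, n = 5 each), which gave a log2 fold change of 0.45 (SE 0.28, 95% interval -0.16 to 1.06, limma p = 0.134, two-sided exact permutation p = 0.254). Without LPD line 1 the log2 fold change was 0.69 (limma unadjusted p = 0.0097, adjusted p = 0.720). Leaving out either of the highest lines lowered it, to 0.30 for LPD line 6 and 0.31 for LPD line 20 (limma unadjusted p = 0.308 and 0.302). Bmp4 lies on chromosome 14 (46383520 to 46390669, minus strand), and Gm15217, which overlaps it on the opposite strand, was at 0 to 5.11.

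Bmpr1a, the type I receptor through which BMP4 signals, was far steadier. It was at 1082, 1454, 1432, 1380 and 1103 in the LPD lines in the same order, and at 1202, 1153, 1091, 1232 and 1227 in the NPD lines. Lines 4, 6 and 20 were above every NPD line, but LPD line 1 was below all of them. The log2 fold change was 0.12 (SE 0.10, 95% interval -0.11 to 0.34, limma p = 0.280, exact permutation p = 0.238). It was 0.18 without LPD line 1, 0.07 without LPD line 4, 0.08 without LPD line 6 and 0.04 with depth as a covariate (limma unadjusted p at least 0.105). Bambi, a receptor-like protein without a kinase that dampens signalling, had its highest values in LPD lines 1 and 4 (195 and 192) and ranged from 132 to 155 in the other LPD lines and from 127 to 153 in NPD lines. Its log2 fold change was 0.21 (SE 0.15, limma p = 0.201, exact permutation p = 0.143).

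Smad1 was the carrier nearest to a difference. It was at 632, 685, 632, 582 and 589 in the LPD lines and at 521, 445, 621, 500 and 584 in the NPD lines. The highest 3 lines were LPD lines and the lowest 3 were NPD lines, with an overlap between 582 and 621. Means were 624 ± 41.5 and 534 ± 69.4 (SD, n = 5 each), a log2 fold change of 0.23 (SE 0.11, 95% interval -0.0047 to 0.47). The limma p was 0.0541 and the two-sided exact permutation p was 0.0397, before any adjustment, so the tests fell on opposite sides of 0.05. Without LPD line 20, NPD line 21 or NPD line 51 the log2 fold change was 0.26, 0.29 or 0.27 (limma unadjusted p = 0.0487, 0.0245 and 0.0455, adjusted p at least 0.964). It was smaller without NPD line 15, at 0.17 (limma unadjusted p = 0.143), and without both NPD line 15 and LPD line 4, at 0.13 (limma unadjusted p = 0.264). Without LPD line 6 and NPD lines 8 and 15, the lines highest in fibroblast markers, it was also 0.13 (limma unadjusted p = 0.323). Smad1 was lowest in NPD line 15, the line highest in fibroblast markers. For correlations, the marker level of a line was the mean log2 value over the listed genes, not their sum. Across lines Smad1 and the fibroblast marker level had r = -0.67 (permutation p = 0.0317, adjusted over 30 such correlations p = 0.317; Spearman rho = -0.59, permutation p = 0.0795, adjusted p = 0.724). Among deviations from the diet means r was -0.65, but it was -0.0095 among the LPD lines and -0.91 among the NPD lines. Over both diets it was -0.90 without LPD line 6 alone and -0.31 without NPD line 15 alone. Without both LPD line 6 and NPD line 15 it was -0.87, so how far it rested on NPD line 15 depended on LPD line 6. The part of these markers in the Smad1 values was not tested.

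Smad5, which carries the same signal, ranged from 614 to 781 in LPD and from 603 to 783 in NPD lines, and its means were 673 ± 67.7 and 664 ± 73.7 (SD, n = 5 each). The log2 fold change was 0.02 (SE 0.11, 95% interval -0.21 to 0.25, limma p = 0.847, exact permutation p = 0.810), and its sign changed to -0.01 with each line rescaled to the same total. Smad6, an inhibitory SMAD that is itself induced by BMP, ranged from 179 to 301 in LPD and from 227 to 292 in NPD lines. It was the only one of the 10 genes with the lower mean in LPD, at 252.02 ± 47.2 against 261 ± 30.6 (SD, n = 5 each). The log2 fold change was -0.06 (SE 0.16, limma p = 0.701, exact permutation p = 0.722), and without LPD line 20 it was 0.06. Both LPD extremes of Smad6 lay outside the NPD range, line 1 above and line 20 below.

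**Figure D2:**
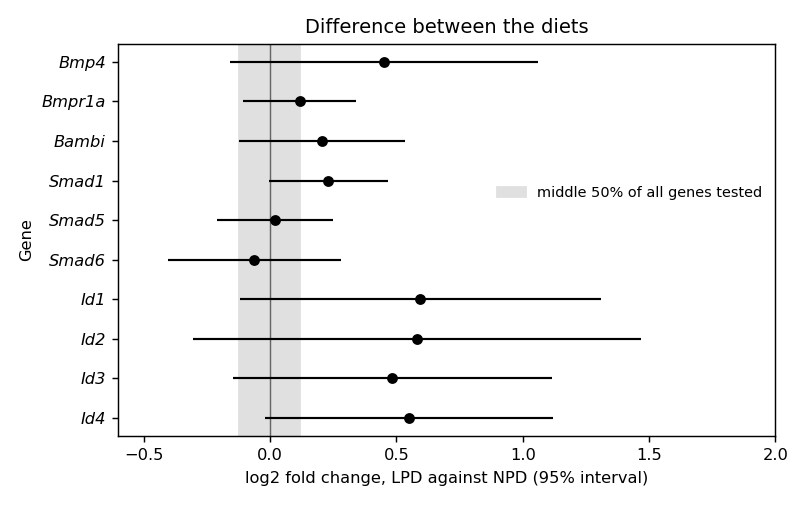
Log2 fold change, LPD against NPD (horizontal axis), for each of the 10 genes with its 95% interval from limma; the grey band holds the middle 50% of all genes tested, from -0.12 to 0.12. Every interval includes 0, and the Id genes and Bmp4 lie farthest to the right.

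The 4 Id genes had the largest log2 fold changes of the 10 genes, and none passed the test. Id1 was at 233, 306, 618, 963 and 517 in LPD lines 1, 4, 6, 20 and 40 and at 299, 239, 347, 251 and 446 in NPD lines 8, 15, 21, 36 and 51. The 3 highest lines were LPD lines and the lowest was LPD line 1, the same arrangement as in Bmp4. Means were 527 ± 289 and 316 ± 84.1 (SD, n = 5 each), a log2 fold change of 0.60 (SE 0.33, 95% interval -0.12 to 1.31, limma p = 0.0946, exact permutation p = 0.190). Without LPD line 1 it was 0.84 (limma unadjusted p = 0.0134, adjusted p = 0.775), and without LPD line 4 it was 0.75 (limma unadjusted p = 0.0492, adjusted p = 0.945). Without LPD line 20, the highest, it was 0.33 (limma unadjusted p = 0.264).

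Id2 was at 142, 208, 337, 287 and 111 in the LPD lines and at 185, 327, 109, 79.2 and 79.3 in the NPD lines. NPD line 15 was the exception among the NPD lines, with the second highest value of all. The log2 fold change was 0.58 (SE 0.41, 95% interval -0.31 to 1.47, limma p = 0.180, exact permutation p = 0.246). Leaving out NPD line 15 gave 0.90 (limma unadjusted p = 0.0247, adjusted p = 1.00).

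Id3 was at 549, 562, 489, 266 and 232 in the LPD lines and at 268, 241, 206, 497 and 262 in the NPD lines. The values formed a high set of LPD lines 1, 4 and 6 with NPD line 36, and a low set of the other 6 lines between 206 and 268. The log2 fold change was 0.48 (SE 0.29, 95% interval -0.15 to 1.12, limma p = 0.121, exact permutation p = 0.222). It was 0.69 without NPD line 36 (limma unadjusted p = 0.0249, adjusted p = 0.9997) and 0.67 without LPD line 40 (unadjusted p = 0.0320, adjusted p = 0.722). Leaving out LPD line 1 or LPD line 4 lowered it to 0.36 in each case (limma unadjusted p = 0.257 and 0.264).

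Id4 was at 170, 144, 191, 93.2 and 108 in the LPD lines and at 126, 132, 79.9, 85.0 and 60.7 in the NPD lines. The highest 3 lines were LPD lines and the lowest 3 were NPD lines. Means were 141 ± 41.1 and 96.7 ± 30.8 (SD, n = 5 each), a log2 fold change of 0.55 (SE 0.26, 95% interval -0.02 to 1.12, limma p = 0.0576, exact permutation p = 0.103). Id4 was also the gene whose call moved most with the choice of lines and settings, passing an unadjusted p of 0.05 in 8 of 21 alternatives and an adjusted p of 0.1 in none, where the smallest adjusted p was 0.773. It was 0.69 without LPD line 20, 0.63 without LPD line 40, 0.66 without NPD line 8 and 0.68 without NPD line 15 (limma unadjusted p = 0.0241, 0.0440, 0.0354 and 0.0272). With any other line left out, the log2 fold change was lower than with all lines. It then ran from 0.40 without NPD line 51 to 0.53 without LPD line 4 (limma unadjusted p at least 0.0938). With depth as a covariate Id4 was at 0.48 (limma unadjusted p = 0.172). In LPD line 4, the shallowest, its value stood for 49.8 read equivalents, a counting error of 14.2%.

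Different LPD lines led in different Id genes. Id1 was highest in LPD line 20, Id2 and Id4 in LPD line 6, and Id3 in LPD line 4. Id1 made up 21.3% of the summed Id values in LPD line 1 and 59.8% in LPD line 20, whereas Id3 made up 50.2% and 16.5% of them. The sum of Id1 to Id4 was 1094, 1220, 1635, 1609 and 968 in LPD lines 1, 4, 6, 20 and 40 and 878, 939, 742, 912 and 848 in the NPD lines. It was 1305 ± 303 in LPD and 864 ± 76.3 in NPD lines (SD, n = 5 each), with every LPD line above every NPD line. With each line rescaled to the same total, LPD line 40 fell to 933 and NPD lines 15 and 36 stood at 955 and 952, so the groups then overlapped. The sum was taken after the values were known and is given as a description without a test.

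**Figure D3:**
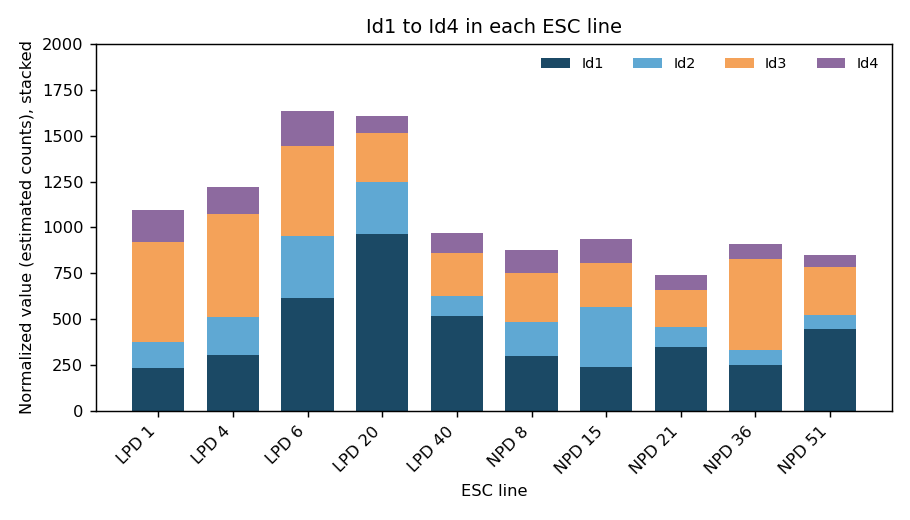
Normalized values (estimated counts) of Id1, Id2, Id3 and Id4 stacked for each ESC line. Totals run from 968 to 1635 in LPD lines and from 742 to 939 in NPD lines, and the gene that makes up most of the bar differs from line to line.

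Within diets the members fell into a variable and a steady set. The SD between lines of 1 diet on the log2 scale was 0.63 for Id1, 0.53 for Bmp4, 0.78 for Id2 and 0.55 for Id3, above 97.5%, 96.7%, 95.2% and 94.5% of genes with a similar level. Id4 (0.45) stood at the percentile 66.3. Bmpr1a, Smad6, Smad5, Smad1 and Bambi stood at 38.1, 37.7, 24.4, 21.7 and 7.80. The highest line exceeded the lowest 4.25-fold for Id2 and 4.14-fold for Id1, but only 1.30-fold for Smad5.

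Per kilobase of annotated transcript, Id1 had the highest mean level at 403 ± 219 and was followed by Bmpr1a (313 ± 35.5), Id3 (279 ± 115), Bmp4 (273 ± 107), Smad1 (169 ± 20.9), Smad6 (158 ± 23.3), Id2 (147 ± 78.6), Smad5 (146 ± 14.6), Id4 (30.9 ± 10.8) and Bambi (30.2 ± 4.52; normalized value per kb, SD over 10 lines). Of the neighbours in this order, Smad5 and Id4 had ranges that did not overlap, and the other 8 pairs of neighbours overlapped.

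Bmp4 and Id1 rose and fell together from line to line. Over the 10 lines Pearson's r of the log2 values was 0.94 (permutation p = 8e-05, adjusted over 45 pairs of genes p = 0.0036) and Spearman's rho was 0.94 (permutation p = 3e-04, adjusted p = 0.0135). This was the 1 pair of 45 that passed adjustment, by either measure. An r of at least 0.9 was not particular to the pair. Among 10454 other genes with a mean of at least 100, Bmp4 had it with 48 and Id1 with 64. The correlation was 0.92 without LPD lines 6 and 20, the lines farthest from the median of Bmp4, and 0.93 to 0.96 with any 1 line left out. It was 0.93 among deviations from the diet means, 0.93 within LPD and 0.94 within NPD lines, so it was present in each diet. LPD line 1 was lowest in both genes.

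**Figure D4:**
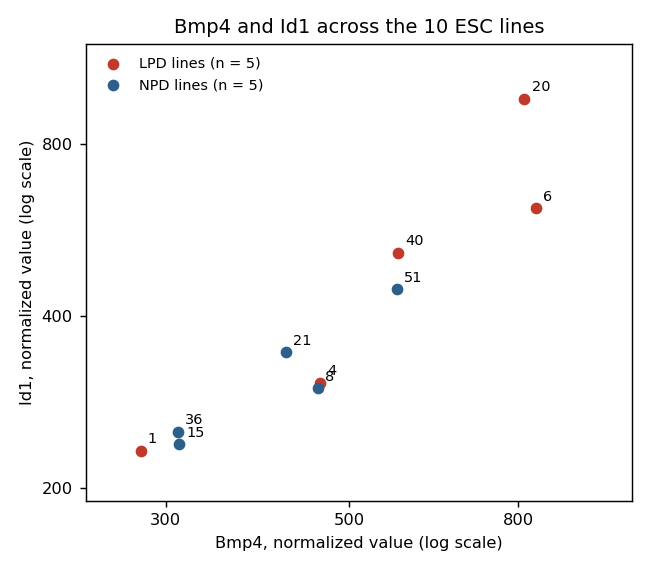
Normalized value of Id1 (vertical axis, log scale) against Bmp4 (horizontal axis, log scale) in the 10 ESC lines, numbered by line. The points of both diets lie along 1 rising band, from LPD line 1 at the lower left to LPD lines 6 and 20 at the upper right.

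The other Id genes did not follow Id1. Its r with Id2 was 0.27, with Id3 -0.27 and with Id4 -0.16 (permutation p = 0.442, 0.459 and 0.658; adjusted p at least 0.7503), with Spearman's rho of 0.20, -0.32 and -0.21 (permutation p = 0.584, 0.366 and 0.559; adjusted p = 0.830, 0.755 and 0.830). Among deviations from the diet means these r were 0.12, -0.60 and -0.58, and without LPD lines 6 and 20 they were -0.47, -0.54 and -0.55. Id2 and Id4 had r = 0.67 (permutation p = 0.0360, adjusted p = 0.533) and rho = 0.73 (permutation p = 0.0201, adjusted p = 0.452), which failed adjustment. The r of this pair was 0.18 among LPD lines and 0.89 among NPD lines. Smad5 and Smad6 had r = -0.81 (permutation p = 0.0038, adjusted p = 0.0864) and rho = -0.68 (permutation p = 0.0343, adjusted p = 0.514), and without LPD line 20 and NPD line 36 r was -0.56, so that relation failed adjustment and leaned on those lines. Within diets it was -0.81.

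The genes most like each member over the 10 lines were listed by Pearson's r among 10454 other genes with a mean of at least 100, as a description. For Id1 they were Nab2 (0.98), Actg1 (0.97) and Fhl3 (0.97), with 64 genes at an r of at least 0.9, and for Bmp4 they were Nfkbie, Ctnna1 and Nfkb1 (0.96 each), with 48 such genes. Id2 was closest to Plxdc2 (0.97), Elf2 (0.95) and Cldn4 (0.93), Id3 to Fyn (0.92), Hspa5 (0.91) and Plppr3 (0.91), and Id4 to Prkra (0.96), Lrrc8b (0.94) and Gramd3 (0.93). Bmpr1a was closest to Snw1, Ptprg and Abcg2 (0.94 each), Bambi to Ube2b (0.91), Gpx3 (0.90) and Polr3gl (0.90), Smad1 to Pld2 (0.92), Abcb1a (0.88) and Mier3 (0.88), Smad5 to Pcm1 (0.93), Plch1 (0.89) and Mastl (0.88), and Smad6 to Ero1lb (0.95), Fam81a (0.95) and Plpp5 (0.94). No gene appeared in the first 3 of more than 1 member.

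Id2 varied within diets with the list levels of extraembryonic markers, though not with each trophectoderm marker. Pooled over diets, the correlations with both lists failed adjustment. Id2 was highest in LPD line 6 and NPD line 15, where the sum of the 7 primitive endoderm markers (Gata4, Gata6, Sox17 and others) was lowest. Their sum was 645 in LPD line 6 and 448 in NPD line 15, where Id2 was 337 and 327, and 4941 in NPD line 36, where Id2 was 79.2. In LPD line 1 the sum was 4312 and Id2 was 142, and in LPD line 20 they were 2098 and 287. The marker sums overlapped between diets, at 645 to 4312 in LPD and 448 to 4941 in NPD lines. Of the 7 markers Foxa2 was at 0 in NPD line 15. The correlations used the mean log2 value over the listed markers in each line, not the sum. Over the 10 lines r was -0.76 (permutation p = 0.0074, adjusted over 30 correlations p = 0.157) and rho was -0.79 (permutation p = 0.0090, adjusted p = 0.229). Without LPD line 6 and NPD line 15, r was -0.56. Pooled over diets it did not pass adjustment, whereas among deviations from the diet means r was -0.94 (permutation p = 4e-05, adjusted p = 0.0012), with -0.88 in LPD and -0.98 in NPD lines. The level of the 7 trophectoderm markers went the other way, with r = 0.79 (permutation p = 0.0105, adjusted p = 0.157) and rho = 0.76 (permutation p = 0.0153, adjusted p = 0.229). The r was 0.87 without LPD line 6 and NPD line 8 and 0.86 within diets (permutation p = 0.0019, adjusted p = 0.0195). Single markers differed. In NPD line 15, where Id2 was 327, Krt7, Gata3, Hand1 and Tfap2a were at 289, 160, 133 and 31.9. Cdx2 and Eomes were at 9.11 and 251 there, against up to 97.9 and 412 in other lines. Elf5 had a mean of 3.55 over the 10 lines. The fibroblast markers had r = 0.61 with Id2 (permutation p = 0.0584, adjusted p = 0.438; rho = 0.41, permutation p = 0.248, adjusted p = 0.775), 0.83 within diets (permutation p = 0.0013, adjusted p = 0.0189) and 0.02 without LPD line 6 and NPD line 15. Their part in the Id2 values was not tested. These correlations were chosen after the values were seen.

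**Figure D5:**
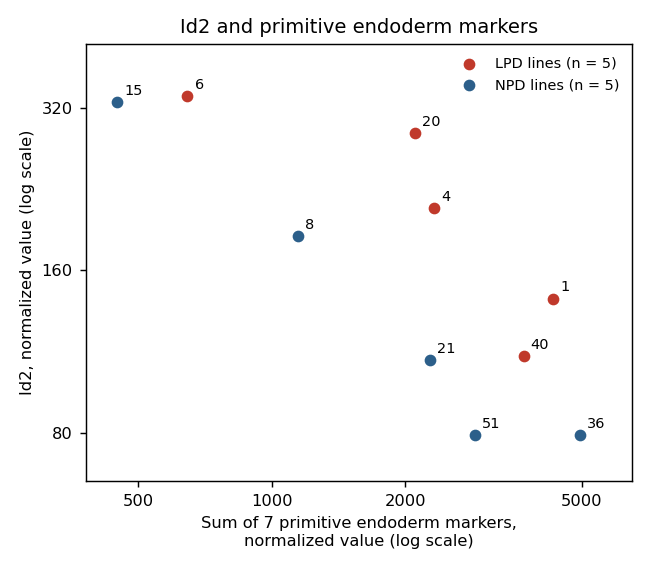
Normalized value of Id2 (vertical axis, log scale) against the summed normalized value of 7 primitive endoderm markers (horizontal axis, log scale) in the 10 ESC lines, numbered by line. Id2 is highest at the left, in LPD line 6 and NPD line 15, and lowest in NPD lines 36 and 51 at the right.

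The wider pathway was examined through 77 genes in 8 lists, of which 71 were listed in the table and 59 tested. Of these 59 genes 1 rose in LPD and 0 fell at an unadjusted p under 0.05, against 2.84% and 2.18% of all genes. None had an adjusted p under 0.1 (0% of all genes), and none had LPD and NPD lines apart (1.02% of all genes). Outside the 10 genes, the LPD mean was higher in 27 and lower in 22 of 49 pathway genes, beside 50.5% higher over all genes, with a median log2 fold change of 0.03. By role, the LPD mean was higher in 5 of 7 tested ligands, 5 of 9 receptors and co-receptors, 2 of 3 SMAD carriers, 5 of 9 intracellular inhibitors, 8 of 11 pseudoreceptor and secreted antagonist genes, 4 of 4 Id genes, 5 of 12 other BMP targets and 2 of 4 bHLH partners.

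The 1 gene called was Fst, which encodes follistatin, a secreted protein that binds activins and some BMPs. It was at 139, 122, 125, 64.6 and 87.6 in LPD lines 1, 4, 6, 20 and 40 and at 65.2, 54.5, 67.9, 50.1 and 46.8 in the NPD lines. The LPD lines other than line 20 were above every NPD line. The log2 fold change was 0.87 (SE 0.24, limma unadjusted p = 0.0030, exact permutation p = 0.0238, adjusted p = 0.573), so it did not pass adjustment over all genes, and its smallest adjusted p under any alternative was 0.296. The most abundant gene of each other list was Gdf3 among ligands (1744 over the 10 lines), Bmpr1a among receptors, Smad4 among carriers (1152), Fkbp1a among intracellular inhibitors (6893), Fstl1 among antagonists (2827), Id1 among Id genes, Dusp9 among other targets (4817) and Tcf3 among the bHLH partners (3099). Dusp9, an X-linked phosphatase gene, was highest in NPD line 15 at 7348, against 3844 to 5503 in the other lines.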

How the data were processed

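RNA sequencing of 10 ESC lines was used, and the 5 LPD and 5 NPD lines were grouped by their labels. Per the study's methods and the submitters' processing notes, the authors trimmed reads with cutadapt, estimated transcript abundance with Salmon on GRCm38 transcripts and tested transcripts with sleuth 0.30.0. The deposited values are a gene-level signal, namely estimated counts scaled with DESeq2 according to the table's name. How transcripts were summed to genes is not given in the sources used here. A strand setting for the quantification is also not given. Reads from any sequence that Bmp4, Bmpr1a or Id4 shares with genes annotated on the opposite strand may therefore not have been told apart. Gene positions and lengths are from GENCODE M21, which matched 19891 of 20206 genes.

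In 4269 genes with 1 annotated transcript, 95.9% to 99.9% of low values were whole multiples of the value of 1 read within a tolerance of 0.15, but over all genes only 70.2% to 77.0% were. Depth is therefore given in read equivalents, and no count model was used. Counting errors cover counting only. Values were analysed as log2(value + 1) for genes with a mean of at least 10, with limma 3.58.1 in R 4.3.3 (mean-variance trend, no covariate, Benjamini-Hochberg adjustment). For single genes, mean log2 values were permuted exactly over all 252 assignments of lines (two-sided, smallest possible p 0.00794). Correlations were tested with 100000 permutations in Python 3.11.15 with scipy 1.17.1. The limma script was tested on simulated data.

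The 10 genes and all lists were chosen with earlier results of these data known. Named beside the 10 genes were pathway genes with an unadjusted p under 0.05 or groups without overlap, the most abundant gene of each list, and the 3 genes most like each of the 10. The alternatives changed the pseudocount (0.5 or 10), the filter (none, or a mean of 100), the scaling (equal totals, or quantiles), the limma settings (no trend, or array weights, or depth as covariate) and the lines (each left out in turn). Further alternatives, added once the values had been seen, were leaving out NPD line 15 with LPD line 4, leaving out LPD line 6 with NPD lines 8 and 15, and the alternatives for the correlations.

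Marker lists were also summed per line. Mesoderm markers summed to 281 to 412 in LPD and 280 to 432 in NPD lines, neural markers to 1235 to 2484 and 1536 to 2456, and trophectoderm markers to 462 to 1421 and 397 to 1085. The trophectoderm list shares Cdx2, Gata3, Hand1 and Tfap2a with the list of other BMP targets.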

Additional observations from a re-analysis of the deposited data

Results flagged for a closer look

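Id3 in NPD lines was marked because NPD line 36, at 496.71, stood apart from the other 4 NPD lines, which ranged from 206 to 268. Its gap to the nearest line was 0.789 of the range of the group, above Dixon's 95% critical value for 5 samples. This was 1 of 20 groups tested (10 genes in each diet), and chance flags about 1 group in 20. NPD line 36 was also the line with the highest sum of primitive endoderm markers, at 4941. Without it the log2 fold change of Id3 was 0.69 (limma unadjusted p = 0.0249, adjusted p = 1.00).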

How the results depend on the processing

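Bmp4, Bmpr1a, Bambi, Smad1 and the 4 Id genes kept a positive log2 fold change in each of 21 alternatives, and Fst in each of 20. The lowest and highest values were 0.24 and 0.69 for Bmp4, 0.04 and 0.18 for Bmpr1a, 0.14 and 0.31 for Bambi, 0.13 and 0.29 for Smad1, 0.33 and 0.84 for Id1, 0.39 and 0.98 for Id2, 0.30 and 0.69 for Id3, 0.40 and 0.74 for Id4 and 0.74 and 1.04 for Fst. Smad5 changed sign, to -0.013 when lines were rescaled to the same total, to -0.0024 under quantile normalization, and to -0.034, -0.012 and -0.0069 without LPD line 20, NPD line 21 and NPD line 51, with -0.034 to 0.082 over all lines left out in turn. Smad6 was at 0.056 without LPD line 20, and its values with 1 line left out ran from -0.13 to 0.056. The cause was not tested. The count of the 10 genes at an unadjusted p under 0.05 went from 0 to 1 under quantile normalization and to 1 with array weights, which was Id4 each time, and to between 0 and 2 with 1 line left out. It was 2 (Id2 and Id4) without NPD line 15 and LPD line 4, and 2 (Id2 and Id4) without LPD line 6 and NPD lines 8 and 15. Over all genes the count at an adjusted p under 0.1 was 1 with array weights, 1 without LPD line 6 and NPD lines 8 and 15, and 0 to 40 with 1 line left out, the 40 being without LPD line 40. None of the 10 genes was among them. Rescaling to the same total moved the share of called genes that were higher in LPD from 56.6% to 40.2%. The count of gene pairs with correlated levels stayed at 1 in each alternative run. No paired analysis was run, because per the study's methods every line came from a different mother, and the labels name no pairs. Genes at low values, such as Id4 and Bambi, were measured least precisely in LPD line 4, at 49.8 and 66.7 read equivalents.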
